A study of Mus musculus with 28 samples.

Results

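The genes described here encode 10 CC chemokines, Ccl2, Ccl7, Ccl12, Ccl3, Ccl4, Ccl5, Ccl22, Ccl24, Ccl6 and Ccl9, which were taken by name from a table of 54532 genes. Their mRNA was measured by RNA sequencing in 28 cultures of bone marrow-derived macrophages (BMDMs), cells grown from mouse marrow with the growth factor M-CSF and, per the study's methods, taken from mice aged 8 to 12 weeks of the strain it spells C57/B6JB. Another passage of the methods gives a younger age range for all mouse experiments. Control cultures received PBS, VWF-treated cultures received 10 µg/ml of human plasma-derived von Willebrand factor (pd-VWF), the blood glycoprotein that tethers platelets to injured vessel walls, and LPS-treated cultures received 100 ng/ml of the bacterial cell wall product lipopolysaccharide. All media, including those of the controls, contained 1 mM CaCl2. Each treatment lasted 3.5 h or 16 h, with 5 control, 5 VWF and 4 LPS cultures at each time. The labels call the cultures biological replicates, but do not say how many animals or marrow preparations they came from, so that p-values describe the spread between these cultures.

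CC chemokines are small secreted proteins that carry a pair of adjacent cysteines and guide leukocytes by binding G protein-coupled receptors of the CCR family. Macrophages that sense microbial products through Toll-like receptors transcribe many of these genes within hours through factors such as NF-κB, and some of them again through interferon signalling. The ligands of CCR2 recruit monocytes, those of CCR1 recruit monocytes and T cells, and Ccl22 and Ccl24 are better known from macrophages exposed to type 2 cytokines.

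Levels are given as CPM, read counts scaled to a common library size with TMM factors, in the order of the replicate numbers, and levels of different genes are set side by side only as TPM, in which counts are also divided by the exon length of the gene. The cultures held 41131209 to 77699206 counts each (median 52986574). The 8 macrophage markers examined, among them Adgre1, Csf1r and Cd68, reached 10 TPM in at least 1 culture of every group. Over the 28 cultures, the summed markers of other cells lay between 0.0669 and 1.93 CPM for T and NK cells (7 markers), 1.25 and 14.5 CPM for B cells (5), 0.729 and 31.3 CPM for dendritic cells (6) and 4.79 and 37.9 CPM for neutrophils (8). Of the neutrophil markers, 2 or 3 reached 10 TPM in at least 1 culture of each group, and S100a8 averaged 3.63 to 15.6 CPM, while Ly6g averaged at most 0.0124 CPM. The part of these cells in the chemokine levels was not tested. Replicate 5 of the control cultures at 16 h stood apart. Its log2 CPM differed from the mean of the other 4 cultures of its group by a root mean square of 1.04 over 8867 genes, against 0.32 to 0.37 for those 4, and its summed macrophage markers came to 5862 CPM against 15005 to 17313. Replicate 4 of the LPS cultures at 16 h lay next farthest, at 0.81. Values without these cultures are given beside some of the results they touch, and counts of calls with each culture left out are given further on. In bulk RNA, fewer cells of a type and less RNA per cell cannot be told apart.

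The summed level of the 10 chemokines was higher with either agonist than in control cultures at 3.5 h and, at 16 h, clearly so with LPS alone. It was 4416 ± 829 TPM (SD, n = 5) in control cultures at 3.5 h, 29232 ± 4725 TPM (n = 5) with VWF and 60345 ± 4246 TPM (n = 4) with LPS. At 16 h it was 3298 ± 471, 4930.1 ± 587 and 30902 ± 2635 TPM. The lowest VWF culture at 16 h, 3987 TPM, lay just above the highest control culture at that time, 3976 TPM, whereas the lowest LPS culture held 27095 TPM. TPM carry no TMM scaling, and these sums were compared by their ranges only.

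**Figure D1:**
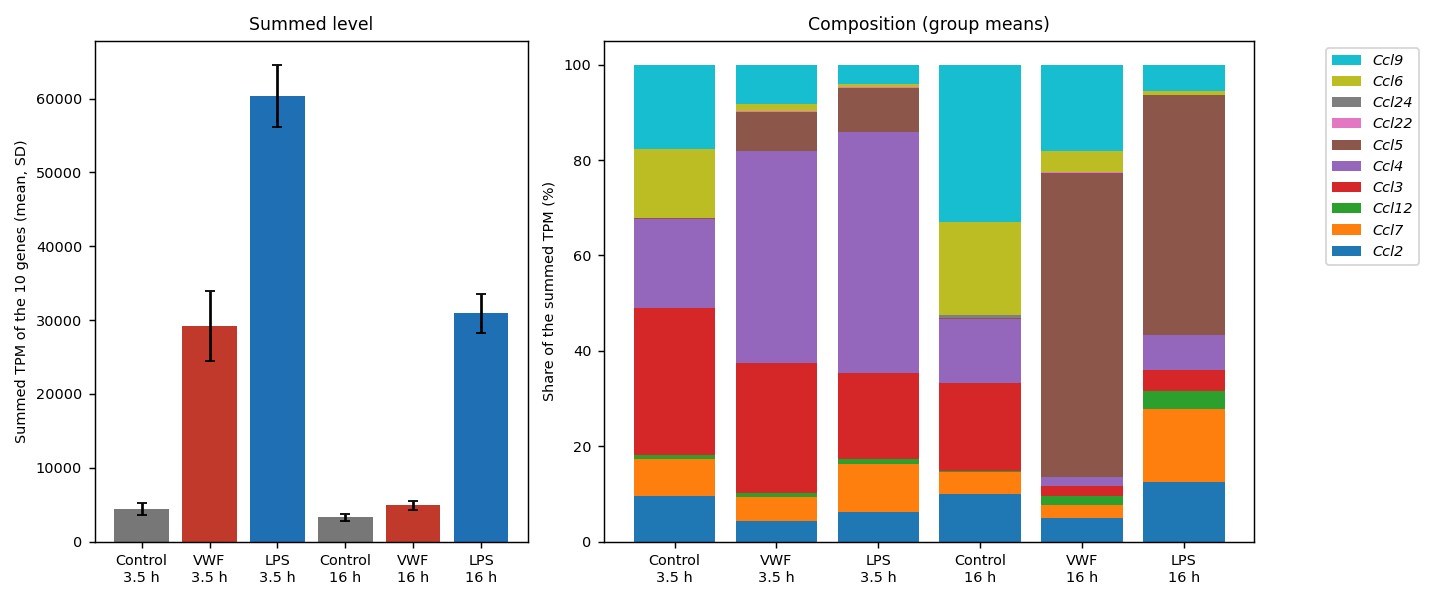
Left, summed TPM of the 10 CC chemokines in each group (bars, mean; error bars, SD; n = 5 for control and VWF, n = 4 for LPS). Right, mean share of each chemokine in that sum, in percent; Ccl4 and Ccl3 together take most of it in both agonist groups at 3.5 h, and Ccl5 takes 63.8% with VWF and 50.4% with LPS at 16 h.

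The make-up of this sum changed with agonist and time. In control cultures at 3.5 h, Ccl3 accounted for 30.9% ± 3.93 of the sum (SD, n = 5), Ccl4 for 18.6% ± 2.35 and Ccl9 for 17.7% ± 2.76, and Ccl5 for 0.171% ± 0.0397. With VWF at 3.5 h, Ccl4 made up 44.6% ± 4.13 and Ccl3 27.3% ± 2.51, and with LPS these shares were 50.6% ± 2.09 and 18.1% ± 2.53 (SD, n = 4). At 16 h Ccl5 was the largest component in both agonist groups, at 63.8% ± 9.3 with VWF and 50.4% ± 7.34 with LPS, while Ccl3 and Ccl4 made up 2.14% ± 0.811 and 1.86% ± 0.804 of the sum with VWF. The control cultures at 16 h were led instead by Ccl9, 33% ± 1.78 of the sum.

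Genes were tested when they reached 10 TPM in at least 1 culture of a comparison, with edgeR's quasi-likelihood test across all such genes, and a gene was called when its adjusted p was under 0.05 and its log2 fold change above 1 in size. With VWF at 3.5 h, 8 of the 9 chemokines tested were called higher, where 9.18% of the 8200 genes tested were called higher. The median log2 fold change was 2.76 over the 9 chemokines and 0.0015 over all genes tested. With LPS at 3.5 h, 9 of 10 were called higher, against 12.8% of 8190 genes, with medians of 4.25 and −0.02. Both agonists were compared with the same control cultures, so their 2 sets of values are not independent.

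At 16 h Ccl3 and Ccl4 were called in opposite directions with VWF and LPS, while Ccl12 and Ccl5 were called higher and Ccl6 lower with both. With VWF, 2 of 9 chemokines were called higher (Ccl12 and Ccl5) and 4 lower (Ccl3, Ccl4, Ccl24 and Ccl6), against 4.55% and 4.15% of 7798 genes; the median was −0.40, and −0.03 over all genes. With LPS, 8 of 10 were called higher and 1 (Ccl6) lower, against 15.3% and 12.4% of 7994 genes, with medians of 3.50 and −0.03. Ccl22 at 3.5 h with either agonist, Ccl24 at 3.5 h with LPS and Ccl22 at 16 h with LPS reached the 10 TPM filter only through the agonist cultures, and Ccl24 at 16 h, in the comparison with VWF, only through the control cultures, so that their calls in these comparisons add nothing to the counts. Ccl24 was under the filter in the comparison of VWF with control at 3.5 h and Ccl22 in that at 16 h.

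**Figure D2:**
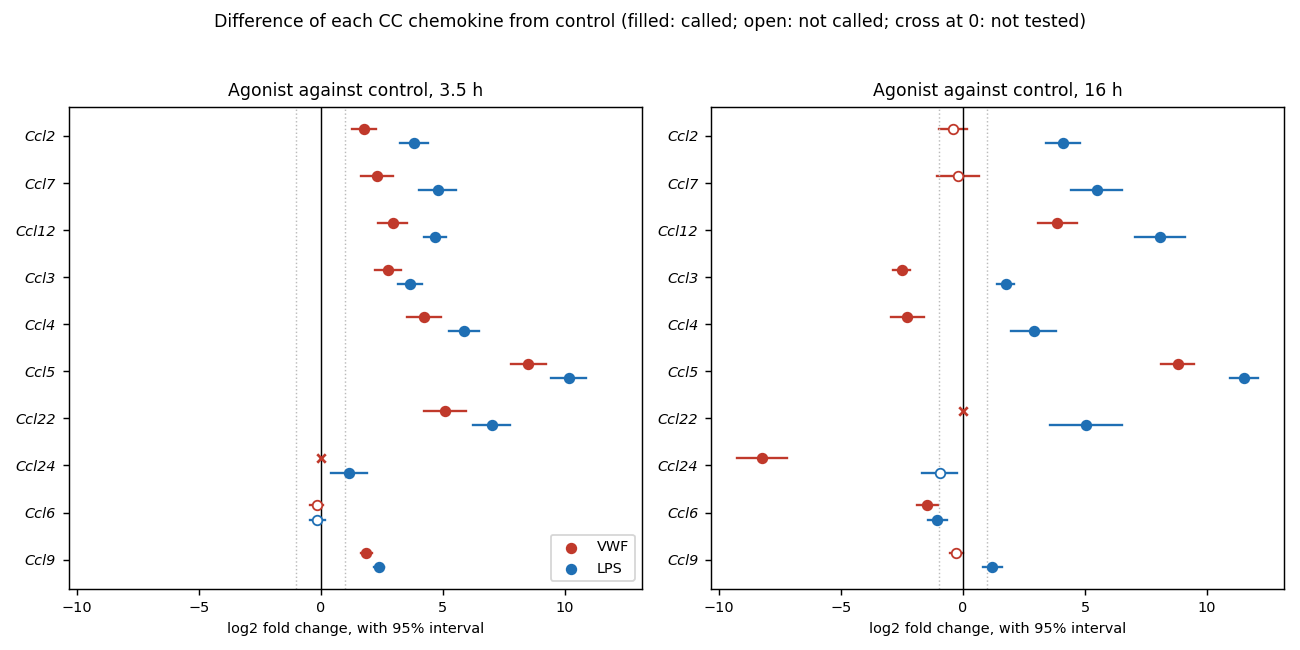
Log2 fold change of each chemokine against control at 3.5 h (left) and 16 h (right), with VWF in red and LPS in blue; lines are 95% intervals from edgeR's quasi-likelihood fit, dotted lines mark a log2 fold change of 1 either way, filled points were called, open points were not, and a cross at 0 marks a gene under the filter. Ccl3, Ccl4, Ccl24 and Ccl6 lie left of 0 with VWF at 16 h, where Ccl12 and Ccl5 lie at 3.87 and 8.79.

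Of the ligands of CCR2, the receptor that brings inflammatory monocytes out of the marrow, Ccl2 and Ccl7 responded to VWF at 3.5 h and were not called at 16 h, and Ccl12 was called at both times. Ccl2 (ENSMUSG00000035385), Ccl7 (ENSMUSG00000035373) and Ccl12 (ENSMUSG00000035352) are neighbours on the plus strand of chromosome 11 in GRCm38, Ccl2 from 82035571 to 82037453, Ccl7 from 82045712 to 82047525 and Ccl12 from 82101845 to 82103400. Values of these and the other members refer to all exons of the gene, none of which overlaps another gene.

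Ccl2, the main monocyte attractant of the group, measured 214, 194, 127, 103 and 121 CPM in the control cultures at 3.5 h. With VWF it measured 499, 564, 520.3, 579 and 367 CPM and with LPS 2819, 1993, 1562 and 2073 CPM. Every VWF culture lay above every control culture and every LPS culture above every VWF culture. The change with VWF was a log2 fold change of 1.76 (SE 0.22, adjusted p = 4.28e-05), and with LPS it was 3.81 (SE 0.26), at an adjusted p = 2.44e-07. At 16 h the control cultures held 191, 136, 82.8, 103 and 143 CPM, the VWF cultures 152, 109, 68.3, 92 and 80.6 CPM and the LPS cultures 1969.8, 2179, 1498 and 3142 CPM. VWF and control cultures then overlapped (log2 fold change −0.40, SE 0.26, adjusted p = 0.314, 95% interval −0.97 to 0.18), and the LPS cultures overlapped those at 3.5 h. In the order of levels, the LPS groups came first and overlapped, VWF at 3.5 h followed, and the other groups, control at 3.5 h, control at 16 h and VWF at 16 h, each overlapped the next.

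Ccl7, which binds CCR2 and further receptors, had the same order of groups, with the overlapping LPS groups exchanged. It measured 130.4, 122, 71.4, 53.1 and 60.7 CPM in control, 364, 546, 431, 512 and 255 CPM in VWF-treated and 3483, 2136, 1682 and 2263 CPM in LPS-treated cultures at 3.5 h. The groups did not overlap, with a log2 fold change of 2.29 (SE 0.30, adjusted p = 6.83e-05) for VWF and a log2 fold change of 4.79 (SE 0.34, adjusted p = 3.3e-07) for LPS. At 16 h it measured 66.7, 49.7, 22.1, 28.4 and 53.2 CPM in control, 70, 46.7, 21.6, 27 and 25.4 CPM in VWF-treated and 1672, 1818, 1013 and 3127 CPM in LPS-treated cultures. Only the LPS cultures were separated from control (log2 fold change 5.48, SE 0.46, adjusted p = 7.03e-06); the interval of the VWF difference was −1.07 to 0.65.

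Replicate 1 held the highest Ccl2 and Ccl7 of its group in control and LPS cultures at 3.5 h and in control and VWF cultures at 16 h. The summed level of 7 stromal and endothelial markers, mostly Col1a1 and Col1a2 of fibroblasts, which can also make these chemokines, was highest in replicate 1 of control at 3.5 h (320.1 CPM, against 55.9 to 242 in the other 4), of LPS at 3.5 h (210.1, against 57.6 to 201), of control at 16 h (186, against 18.7 to 127) and of VWF at 16 h (305, against 61.2 to 164). It was also highest in replicate 1 of VWF at 3.5 h (411 CPM) and of LPS at 16 h (364 CPM), where Ccl2 and Ccl7 were not the highest. With VWF at 3.5 h, Ccl2 and Ccl7 of replicate 1 exceeded those of replicate 5 alone. Some other cultures also ranked differently. In control at 3.5 h, replicate 4 held a sum of 242 CPM and the lowest Ccl2 and Ccl7 (103 and 53.1 CPM). In control at 16 h, replicate 5 held the lowest sum (18.7 CPM), and only replicate 1 exceeded its Ccl2 and Ccl7 (143 and 53.2 CPM). The part of these cells in the levels was not tested.

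Ccl12, a mouse CCR2 ligand also called MCP-5, was the ligand of this receptor still called higher with VWF at 16 h. It measured 7.54, 7.34, 5.82, 5.01 and 5.09 CPM in control, 30.2, 47.7, 48.7, 75 and 30.4 CPM in VWF-treated and 206, 121, 133 and 164 CPM in LPS-treated cultures at 3.5 h. At 16 h these values were 1.87, 1.65, 0.7, 0.83 and 0.87 CPM, 23.6, 20.3, 13.3, 20.7 and 10 CPM and 259.7, 306, 191 and 484 CPM. At neither time did any of these groups overlap, and in the order of all 6 groups only the LPS groups did. VWF raised Ccl12 by a log2 fold change of 2.94 (SE 0.26, adjusted p = 3.08e-06) at 3.5 h and by a log2 fold change of 3.87 (SE 0.36, adjusted p = 2.41e-05) at 16 h. Within the VWF cultures its level was lower at 16 h than at 3.5 h (−1.39, SE 0.29, adjusted p = 0.00138), but it was lower still in the later controls (−2.36, SE 0.31, adjusted p = 0.000261), and the VWF effect was not called different between the times (0.95, SE 0.42, adjusted p = 0.0973, 95% interval 0.06 to 1.83). Without replicate 1 of control at 16 h, replicate 4 of VWF at 3.5 h or replicate 5 of VWF at 16 h that difference was called, at 1.17, 1.18 and 1.09. With LPS the effect on Ccl12 was larger at 16 h than at 3.5 h (3.38, SE 0.43, adjusted p = 5.54e-06).

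Promoter sequence was held in the reference tables for 5 of the 10 members, Ccl12, Ccl3, Ccl22, Ccl6 and Ccl9. The 250 bases before the RefSeq start of Ccl12 and Ccl3, which went opposite ways with VWF at 16 h, and of Ccl9 and Ccl6, neighbouring genes of which only Ccl9 was called with VWF at 3.5 h, are printed 5′ to 3′ on the strand of the gene (GRCm38.p6), with motif matches in capitals. The motifs searched, with N for any base, were GGGNNTTNCC (κB-like), GAAANNGAAA (ISRE-like), TGANTCA (AP-1), TTGCNNAA (C/EBP-like) and TTCNNNNGAA (STAT6-like), on both strands, and TATAAA on the strand of the gene.
Ccl12, chr11:82101595-82101844, plus strand: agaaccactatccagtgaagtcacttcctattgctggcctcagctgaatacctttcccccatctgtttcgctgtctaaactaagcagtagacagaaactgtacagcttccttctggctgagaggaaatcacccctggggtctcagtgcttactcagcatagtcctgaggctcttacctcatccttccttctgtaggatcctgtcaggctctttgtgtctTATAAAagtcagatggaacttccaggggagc
Ccl3, chr11:83649379-83649628, minus strand: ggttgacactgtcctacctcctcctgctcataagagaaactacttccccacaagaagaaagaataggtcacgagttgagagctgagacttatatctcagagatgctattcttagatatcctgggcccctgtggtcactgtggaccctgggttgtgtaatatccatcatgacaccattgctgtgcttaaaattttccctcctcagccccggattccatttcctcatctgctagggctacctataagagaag
Ccl9, chr11:83578637-83578886, minus strand: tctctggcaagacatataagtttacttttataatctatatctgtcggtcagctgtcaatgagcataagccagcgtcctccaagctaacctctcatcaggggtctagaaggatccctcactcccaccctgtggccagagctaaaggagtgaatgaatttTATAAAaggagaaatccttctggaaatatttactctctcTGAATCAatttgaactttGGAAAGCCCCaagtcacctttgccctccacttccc
Ccl6, chr11:83593088-83593337, minus strand: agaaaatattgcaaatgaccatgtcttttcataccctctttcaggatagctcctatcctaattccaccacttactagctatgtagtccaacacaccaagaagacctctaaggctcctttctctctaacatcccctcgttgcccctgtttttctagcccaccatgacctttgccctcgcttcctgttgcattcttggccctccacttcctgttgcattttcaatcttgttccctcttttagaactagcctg
The capitals mark TATAAA in Ccl12, 31 to 26 bases before the start, and, in Ccl9, TATAAA 92 to 87 bases, TGAATCA 53 to 47 bases and the κB-like GGAAAGCCCC (read on the opposite strand) 35 to 26 bases before it. No matches overlapped each other. The windows of Ccl3, Ccl6 and Ccl22 held none of these letters. Of 32817 promoter windows of the same length, 4.11% held the κB-like motif, 2.97% the ISRE-like, 6.75% the AP-1, 9.57% the C/EBP-like, 5.85% the STAT6-like motif and 7.6% TATAAA. The matches describe the letters in these windows and nothing about binding.

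**Figure D3:**
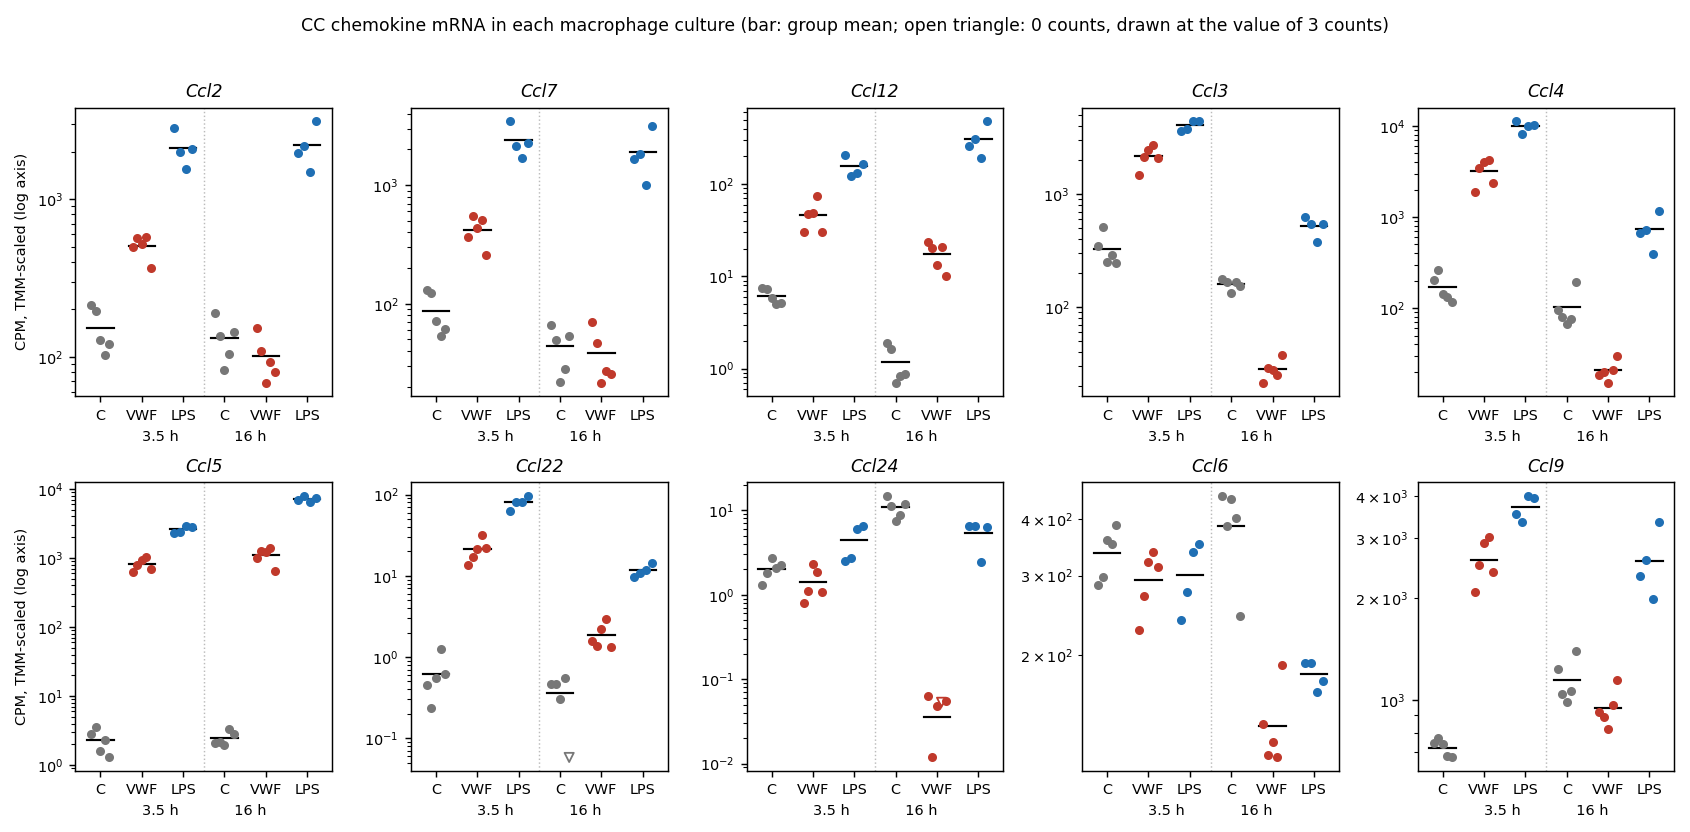
CPM of each chemokine in each culture (points, in the order of the replicate numbers from left to right; log axis, different for each gene), with control in grey, VWF in red and LPS in blue, 3.5 h left and 16 h right of the dotted line; bars are group means, and an open triangle is a culture with 0 counts, drawn at the level of 3 counts. The VWF cultures of Ccl3 and Ccl4 lie far above control at 3.5 h and below every control culture at 16 h, while those of Ccl5 lie above control at both times, by 362 and 443 times in the fitted fold.

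Ccl3, Ccl4 and Ccl5, which attract monocytes and activated T cells, also split with VWF at 16 h, where Ccl3 and Ccl4 were called lower and Ccl5 higher. Ccl3 (ENSMUSG00000000982; chromosome 11, 83647844 to 83649355, minus strand) and Ccl4 (ENSMUSG00000018930; 83662584 to 83664683, plus strand) encode MIP-1α and MIP-1β. Ccl3 measured 345, 517, 251, 292 and 245 CPM in control, 1493, 2151, 2471, 2758 and 2102 CPM in VWF-treated and 3605, 3786, 4456 and 4473 CPM in LPS-treated cultures at 3.5 h. The groups did not overlap, and VWF raised Ccl3 by a log2 fold change of 2.76 (SE 0.24, adjusted p = 2.14e-06), LPS by a log2 fold change of 3.65 (SE 0.23, adjusted p = 1.13e-07).

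At 16 h Ccl3 with VWF had fallen under the control level. It measured 178, 167, 134, 166 and 153 CPM in control, 21.3, 28.9, 27.8, 25.1 and 37.3 CPM in VWF-treated and 629.8, 540.3, 379.7 and 543 CPM in LPS-treated cultures. Each VWF culture lay below the lowest control culture and each LPS culture above the highest (log2 fold change −2.51, SE 0.15, adjusted p = 1.46e-06 for VWF and 1.75, SE 0.15, adjusted p = 8.91e-06 for LPS). From 3.5 h to 16 h, Ccl3 in VWF cultures fell by a log2 fold change of −6.28 (SE 0.22, adjusted p = 2.5e-09). It was also lower at 16 h in control (−1.04, SE 0.20, adjusted p = 0.00225) and LPS cultures (−2.94, SE 0.17, adjusted p = 1.92e-06). The control call was lost without replicate 2 at 3.5 h (−0.83) or replicate 3 at 16 h (−0.98). In the order of levels, only LPS at 16 h and control at 3.5 h overlapped.

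Ccl4 followed the same course as Ccl3, with a larger rise at 3.5 h. It measured 206, 260.1, 144, 132 and 118 CPM in control, 1869.5, 3419, 3973, 4279 and 2340.01 CPM in VWF-treated and 11346, 8101, 10099 and 10115 CPM in LPS-treated cultures at 3.5 h (log2 fold change 4.23, SE 0.31, adjusted p = 5.88e-07 for VWF and 5.87, SE 0.27, adjusted p = 9.72e-09 for LPS). Its values at 16 h were 94.8, 79.2, 66.7, 76.6 and 194 CPM in control, 18.6, 20, 15.2, 21.2 and 29.7 CPM in VWF-treated and 671, 725, 391 and 1168 CPM in LPS-treated cultures. VWF cultures again lay below all controls, of which replicate 5 was the highest. The fold change with VWF was −2.29 (SE 0.30, adjusted p = 0.000249), and −1.94 without that culture (adjusted p = 1.33e-05). Within VWF cultures Ccl4 fell between the times by a log2 fold change of −7.24 (SE 0.31, adjusted p = 8.32e-09). The decrease in LPS cultures was −3.72, SE 0.33, adjusted p = 1.59e-05. In control cultures the difference was −0.73, SE 0.33, adjusted p = 0.0969, and −1.11 (adjusted p = 0.00232) without replicate 5 at 16 h, which passes both limits. The order of levels had no overlap between neighbours except control at 3.5 h and at 16 h.

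Ccl5 (ENSMUSG00000035042; chromosome 11, 83525778 to 83530518, minus strand), or RANTES, which binds CCR1 and CCR3 and is a known target of interferon regulatory factors, did not fall back with VWF. It was low in control cultures, at 2.78, 3.55, 1.59, 2.32 and 1.29 CPM at 3.5 h and 2.13, 2.17, 1.98, 3.32 and 2.86 CPM at 16 h. With VWF it measured 619.6, 795, 938, 1051 and 697 CPM at 3.5 h and 1013, 1263, 1213, 1405 and 649.9 CPM at 16 h, and with LPS 2276, 2397, 2903 and 2795 CPM at 3.5 h and 6849.8, 8022, 6371 and 7374 CPM at 16 h. The VWF cultures of the 2 times overlapped, whereas the LPS cultures were all higher at 16 h. In the order of levels the control groups were the other neighbours to overlap. VWF raised Ccl5 by a log2 fold change of 8.50 (SE 0.33, adjusted p = 5.48e-09) at 3.5 h and by a log2 fold change of 8.79 (SE 0.30, adjusted p = 6.99e-08) at 16 h, and the test of the difference between these effects did not pass (0.31, SE 0.35, adjusted p = 0.572, 95% interval −0.42 to 1.04). With LPS the effect grew with time (1.38, SE 0.32, adjusted p = 0.00194), from 10.15 to 11.52. T and NK cells also express Ccl5. The summed level of 7 markers of these cells was 0.0669 to 1.93 CPM over all 28 cultures. At 3.5 h it was 0.13 to 0.686 CPM in the agonist cultures, against 0.405 to 1.16 CPM in their controls. At 16 h it was 0.539 to 1.6 CPM in control, 0.64 to 1.93 CPM in VWF and 0.0669 to 0.403 CPM in LPS cultures. The part of these cells in the Ccl5 values was not tested.

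Ccl22 (ENSMUSG00000031779; chromosome 8, 94745590 to 94751699, plus strand) and Ccl24 (ENSMUSG00000004814; chromosome 5, 135569937 to 135573049, minus strand) lie away from the chromosome 11 clusters, encode ligands of CCR4 and CCR3, the receptors of regulatory and type 2 T cells and of eosinophils, and with VWF lay on opposite sides of control at 16 h. Ccl22 (MDC) measured 0.458, 0.233, 0.552, 1.24 and 0.626 CPM in control, 13.6, 17.3, 21.7, 31.7 and 22.3 CPM in VWF-treated and 63.3, 82.1, 81.7 and 97.3 CPM in LPS-treated cultures at 3.5 h. The groups did not overlap (log2 fold change 5.09, SE 0.39, adjusted p = 8.41e-07 for VWF and 7.0, SE 0.34, adjusted p = 1.44e-08 for LPS). At 16 h it measured 0.472, 0.47, 0.307, 0.553 and 0 CPM in control, 1.56, 1.35, 2.22, 2.98 and 1.34 CPM in VWF-treated and 9.67, 10.8, 11.8 and 14.6 CPM in LPS-treated cultures. The control culture at 0 was replicate 5, where 3 counts would be 0.058 CPM. In the order of levels, VWF at 3.5 h overlapped LPS at 16 h, and the control groups overlapped each other.

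The VWF cultures at 16 h thus still lay above all controls, at levels under the filter. With edgeR's own filter, under which 9.47% of 14376 genes were called, the log2 fold change of Ccl22 was 2.42 (SE 0.62, adjusted p = 0.0159). The decline of Ccl22 from 3.5 h to 16 h was −3.49, SE 0.29, adjusted p = 1.21e-06 in VWF cultures and −2.76, SE 0.17, adjusted p = 2.76e-06 in LPS cultures, and the distance between VWF and LPS was not called different between the times (−0.75, SE 0.35, adjusted p = 0.0808, 95% interval −1.49 to −0.01). Dendritic cells are another source of Ccl22. The summed level of 6 dendritic markers was 1.32 to 1.92 CPM in control, 13.7 to 19.4 CPM in VWF and 22 to 27.3 CPM in LPS cultures at 3.5 h. Xcr1 averaged 0.496, 12.7 and 22.6 CPM and Zbtb46 0.988, 2.91 and 1.66 CPM in these groups, and Flt3, Clec9a, Cd209a and Siglech at most 0.212 CPM. At 16 h the sums were 0.729 to 2.30 CPM, 0.933 to 2.95 CPM and 13.8 to 31.3 CPM. With LPS at 16 h Xcr1 averaged 20.1 CPM and Clec9a 1.11 CPM. The part of these cells in the Ccl22 values was not tested.

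Ccl24 (eotaxin-2) had its highest level in control cultures at 16 h, as did Ccl6. At 3.5 h it measured 1.32, 1.79, 2.7, 2.05 and 2.25 CPM in control, 0.799, 1.12, 2.29, 1.84 and 1.09 CPM in VWF-treated and 2.51, 2.73, 5.97 and 6.58 CPM in LPS-treated cultures. These groups overlapped with control. The change with VWF, under edgeR's own filter (14.8% of 14153 genes called), was −0.43 (SE 0.31, adjusted p = 0.324). The increase with LPS was a log2 fold change of 1.16 (SE 0.33, adjusted p = 0.00979), and fell under the fold limit without replicate 3 of LPS (0.98).

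At 16 h Ccl24 had risen in the controls to 14.9, 11.2, 7.44, 8.82 and 11.9 CPM (log2 fold change 2.44, SE 0.25, adjusted p = 5.13e-05). The VWF cultures held 4, 1, 3, 0 and 3 counts, and the LPS cultures 6.44, 6.49, 2.47 and 6.3 CPM. VWF cultures were thus below all others, with 11 counts in 5 cultures against 3653 in the controls. After scaling, the control level was 323 times the VWF level, with a 95% interval of 180.4 to 648 that covers counting error only, and the LPS level was 161 times it (89.5 to 323). The fitted log2 fold change against control, −8.23 (SE 0.46, adjusted p = 1.22e-06), depends on how so few counts are handled. Against their own 3.5 h level, the VWF cultures were lower by 40.4 times (22.3 to 81.6). With LPS at 16 h, Ccl24 was lower than control in every culture at a log2 fold change just under the limit (−0.96, SE 0.32, adjusted p = 0.0291). With each culture left out, this change ranged from −1.08 to −0.72 (adjusted p of the same test 0.0243 to 0.0681). At 16 h the 6 eosinophil and mast cell markers summed to 7.81 to 13.8 CPM in control, 2.11 to 3.43 CPM in VWF and 1.15 to 3.28 CPM in LPS cultures. Most of this was Siglecf, which macrophages can also express (mean 10.1, 2.44 and 1.26 CPM). Epx, Mcpt4 and Tpsb2 averaged at most 0.02 CPM in these groups. Their part in the Ccl24 values was not tested. In the order of levels, control at 16 h stood first and VWF at 16 h last, each apart from its neighbour, and the groups between them each overlapped the next.

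Ccl6 (ENSMUSG00000018927; chromosome 11, 83587882 to 83593087) and Ccl9 (ENSMUSG00000019122; 83572919 to 83578636) are rodent ligands of CCR1 that lie side by side on the minus strand and are expressed constitutively by myeloid cells. Ccl9 measured 743, 769, 742, 681 and 676 CPM in control, 2081, 2509, 2914, 3031 and 2387 CPM in VWF-treated and 3532, 3363, 4016 and 3939.98 CPM in LPS-treated cultures at 3.5 h. The groups did not overlap, and both agonists raised Ccl9 (log2 fold change 1.87, SE 0.11, adjusted p = 8.09e-08 for VWF and 2.38, SE 0.10, adjusted p = 3.89e-09 for LPS). Its values at 16 h were 1235, 1041, 985, 1060.4 and 1395 CPM in control, 919.7, 891, 819, 966 and 1144 CPM in VWF-treated and 2326, 2595, 1992 and 3362 CPM in LPS-treated cultures. VWF and control cultures overlapped (−0.28, SE 0.12, adjusted p = 0.125, 95% interval −0.55 to −0.01) and the LPS cultures lay above both (1.21, SE 0.18, adjusted p = 0.000307). Scaled by library size alone, the LPS change was 0.66 and under the fold limit. With TMM scaling and each culture left out, it ranged from 1.04 to 1.31. Ccl9 was highest with LPS at 3.5 h and lowest in control at 3.5 h, each apart from the next group.

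Ccl6 was not called at 3.5 h and was called lower with both agonists at 16 h. At 3.5 h it measured 286, 298, 359, 351 and 387 CPM in control, 227, 269.8, 321, 337 and 313 CPM in VWF-treated and 239.9, 276, 338 and 352 CPM in LPS-treated cultures. The groups overlapped throughout, with 95% intervals of −0.43 to 0.10 for VWF and −0.43 to 0.16 for LPS. At 16 h it measured 450.3, 385, 443, 402 and 244 CPM in control, 141, 120.4, 129, 119 and 190.04 CPM in VWF-treated and 193, 192, 166 and 176 CPM in LPS-treated cultures. Both agonist groups lay below all controls, the lowest of which was replicate 5, and overlapped each other; the other 4 groups each overlapped the next. The log2 fold change with VWF was −1.47 (SE 0.19, adjusted p = 0.000228), or −1.60 without that culture, and with LPS −1.05 (SE 0.17, adjusted p = 0.00068), or −1.17 without it. The LPS value was just under the fold limit with edgeR's own filter (−0.96), with no filter (−0.96) and without replicate 1 or 3 of control at 16 h (−0.98 and −0.99).

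Compared directly, VWF-treated cultures expressed the group at lower levels than LPS-treated cultures, and the gap was wider at 16 h. At 3.5 h, 7 of 10 chemokines were called lower with VWF, where 6.71% of 7500 genes were called lower, and 9 of 10 did not overlap between the groups, as did 39.9% of all genes. The median difference was −1.63, against 0.02 over all genes. Ccl7 differed most (−2.48, SE 0.26, adjusted p = 2.05e-05) and Ccl2 next (−2.04, SE 0.18, adjusted p = 8.11e-06). Ccl3 (−0.87, SE 0.16, adjusted p = 0.00124) and Ccl9 (−0.50, SE 0.12, adjusted p = 0.00675) were lower by less than the fold limit. In TPM, which carry no TMM scaling, the ranges of Ccl9 overlapped, at 2156 to 2547 with VWF and 2341 to 2639 with LPS. Ccl6 was at −0.02 (SE 0.14), with a 95% interval of −0.33 to 0.30, and at 0.27 when scaled by library size alone.

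At 16 h, 9 of 10 were called lower with VWF than with LPS, all but Ccl6, against 14.5% of 7574 genes, with medians of −4.18 and 0.0022. Ccl22 at 16 h, and Ccl24 at both times, reached the filter in these comparisons only through the LPS cultures, so that their calls add nothing to the counts. The 16 h differences were −5.64 (SE 0.48) for Ccl7, −5.14 (SE 0.34) for Ccl4, −4.45 (SE 0.29) for Ccl2, −4.22 (SE 0.20) for Ccl3 and −4.14 (SE 0.34) for Ccl12. They were smaller for Ccl5, −2.69 (SE 0.21), Ccl22, −2.63 (SE 0.27), and Ccl9, −1.43 (SE 0.16). Ccl9 was at −0.98 when scaled by library size alone. Ccl6, at −0.37, SE 0.15, adjusted p = 0.0499, overlapped, and lay at 0.07 with that scaling. The gap had widened by the test of the difference for 7 of 10 members (Ccl2, Ccl7, Ccl12, Ccl3, Ccl4, Ccl5 and Ccl24), against 14.3% of 8217 genes, from −1.07 for Ccl5 to −5.6 for Ccl24 on the log2 scale. Ccl24 reached the filter there only through the LPS cultures, so that its call adds nothing to the count. Its value also rests on 11 counts in the VWF cultures at 16 h. The call of Ccl5 was lost with library size scaling (−0.89) and without replicate 4 of VWF at 3.5 h (−0.97) or replicate 5 at 16 h (−0.92). Ccl9 was at −0.96, SE 0.21, adjusted p = 0.000877, and passed the fold limit without replicate 1 or 3 of LPS at 16 h, replicate 1 of VWF at 3.5 h or replicate 5 of VWF at 16 h (−1.01 to −1.06).

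**Figure D4:**
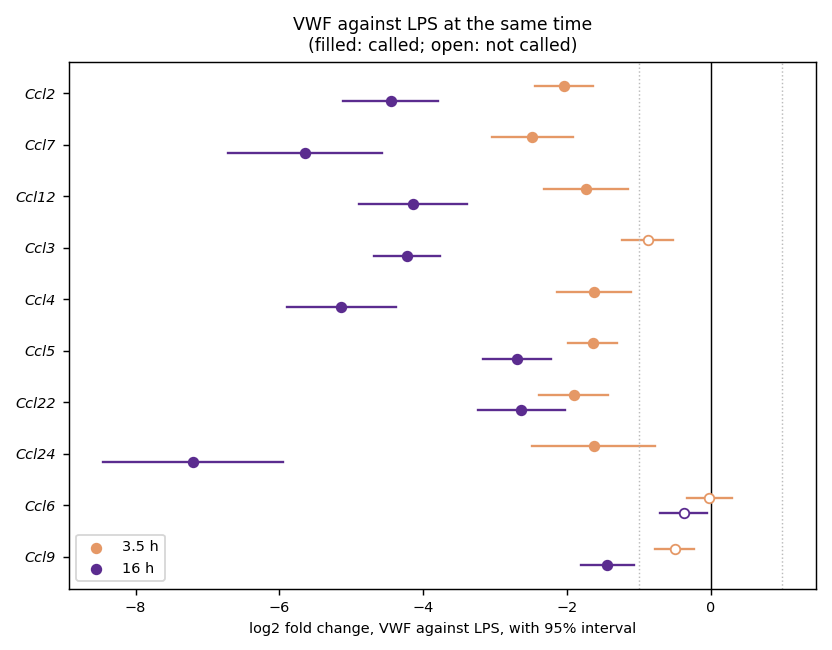
Log2 fold change of each chemokine in VWF-treated against LPS-treated cultures at 3.5 h (orange) and 16 h (purple), with 95% intervals from edgeR's quasi-likelihood fit; filled points were called and open points were not. Apart from Ccl6, which overlaps 0 at 3.5 h and turns to 0.27 and 0.07 at the 2 times when scaled by library size alone, every point lies left of 0, and the 16 h points of Ccl2, Ccl7, Ccl12, Ccl3, Ccl4 and Ccl24 lie left of −4.

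Within VWF cultures, 8 of 9 chemokines tested were called lower at 16 h than at 3.5 h, all but Ccl5, against 12.2% of 7927 genes, with medians of −2.33 and 0.02. Ccl22 reached the filter there only through the 3.5 h cultures, so that its call adds nothing to the count. The decreases ran from −1.06 for Ccl6 and −1.39 for Ccl12 through −2.33 for Ccl2 and −3.46 for Ccl7 to −6.28 for Ccl3 and −7.24 for Ccl4. The call of Ccl6 was lost with library size scaling (−0.96) and without replicate 4 of VWF at 3.5 h (−0.999). Ccl5, at 0.44, SE 0.21, adjusted p = 0.0775, overlapped between the times. In control cultures 1 of 9 was called higher (Ccl24) and 2 lower (Ccl12 and Ccl3), against 4.12% and 4.99% of 8333 genes. Ccl24 reached the filter there only through the 16 h cultures, so that the higher call adds nothing. In LPS cultures 2 of 10 were called higher (Ccl12 and Ccl5) and 3 lower (Ccl3, Ccl4 and Ccl22), against 14.6% and 13.5% of 6987 genes. Ccl12 with LPS sat at the limit (1.01, SE 0.29, adjusted p = 0.0144), and was at 0.71 without replicate 4 at 16 h. Ccl2 with LPS differed by 0.08 (SE 0.25) between the times, and by −0.01 with library size scaling.

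Set against the control cultures of the same time, the VWF effect was smaller or more negative at 16 h for 8 of 10 members, all but Ccl12 and Ccl5, against 8.05% of 8660 genes. Of these, Ccl22 reached the filter only through VWF cultures at 3.5 h and Ccl24 only through control cultures at 16 h, and their calls add nothing to the count. Leaving aside Ccl24 with its few counts, the largest differences were in Ccl4 (−6.52, SE 0.46, adjusted p = 2.16e-09) and Ccl3 (−5.25, SE 0.29, adjusted p = 9.14e-11). The differences were also called for Ccl2 (−2.14, SE 0.35, adjusted p = 7.66e-05), Ccl7 (−2.50, SE 0.51, adjusted p = 0.000741) and Ccl9 (−2.13, SE 0.17, adjusted p = 6.37e-09), whose VWF effects went from 1.76 to −0.40, from 2.29 to −0.21 and from 1.87 to −0.28. The LPS effect was larger at 16 h for Ccl12 and Ccl5 and smaller for Ccl3, Ccl4, Ccl22, Ccl24 and Ccl9, against 13.5% and 12.8% of 8748 genes. Ccl22 reached the filter there only through the LPS cultures. Ccl2 and Ccl7 kept LPS effects that were not called different between the times, with 95% intervals of −0.53 to 1.12 and −0.42 to 1.81.

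Some cultures were high or low in their group for many members at once. With VWF at 3.5 h, replicate 4 held the highest level of 8 of the 10 chemokines and replicate 1 the lowest of 8. In control cultures at 16 h replicate 3 held the lowest level of 8. In LPS cultures at 16 h replicate 3 held the lowest of 9 and replicate 4 the highest of 6. These ranks were taken over the 10 members only, so they are not shown to be particular to the chemokines. Over all 28 cultures, Ccl2 and Ccl7 had the most similar patterns of any 2 members, with a root mean square difference of 0.68 between their centred log2 CPM, followed by Ccl3 and Ccl4 at 0.84.

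Of 11 other CC ligands, Ccl8 and Ccl17 were the ones tested. Both reached the 10 TPM filter only through the agonist cultures, so that their calls are not independent of the filter. Ccl8 (MCP-2) averaged 0.286 ± 0.247, 2.2 ± 1.22 and 16.8 ± 2.93 CPM in control, VWF and LPS cultures at 3.5 h (log2 fold change 2.97, SE 0.65, adjusted p = 0.0028 for VWF and 5.91, SE 0.52, adjusted p = 1.79e-06 for LPS). At 16 h it averaged 0.325 ± 0.213, 1.1 ± 0.687 and 37.5 ± 13.2 CPM, and was called with LPS (6.85, SE 0.48, adjusted p = 2.11e-06) and not with VWF (1.73, SE 0.59, adjusted p = 0.0529). Ccl17, which like Ccl22 binds CCR4, averaged 0.129 ± 0.138, 2.81 ± 1.02 and 6.73 ± 1.53 CPM at 3.5 h (4.46, SE 0.56, adjusted p = 4.79e-05 for VWF and 5.72, SE 0.51, adjusted p = 2.16e-06 for LPS) and 0.0391 ± 0.0643, 0.315 ± 0.186 and 1.09 ± 1.06 CPM at 16 h, where it was under the filter.

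Of 10 CC chemokine receptors, 4 were tested in each comparison with control, and 5 with LPS at 16 h. Ccr2, the receptor of Ccl2, Ccl7 and Ccl12, was called lower with both agonists at 3.5 h (−1.05, SE 0.23, adjusted p = 0.00304 for VWF and −1.28, SE 0.20, adjusted p = 0.000218 for LPS). Ccr3, which binds Ccl24 and Ccl5, was called higher with VWF at 16 h (1.19, SE 0.21, adjusted p = 0.00168) and with LPS at both times (1.76, SE 0.12, adjusted p = 2.37e-07; 1.41, SE 0.16, adjusted p = 4.88e-05). Ccr7, the receptor that guides cells to lymph nodes, was called higher with LPS at 16 h (5.40, SE 0.41, adjusted p = 3.97e-06). Ccr2 at 3.5 h reached the filter only through the control cultures. At 16 h Ccr3 reached it only through the agonist cultures and Ccr7 only through the LPS cultures. Their calls in these comparisons are thus not independent of the filter. Ccr1 was not called against control at either time. Of 6 atypical or related receptors, Ccrl2, which binds chemerin without signalling, was the one tested. It averaged 30.1 ± 9.25, 244 ± 31.4 and 544 ± 47.9 CPM at 3.5 h and 13.1 ± 3.26, 8.56 ± 1.53 and 380.2 ± 134 CPM at 16 h. It was called higher with both agonists at 3.5 h (3.05, SE 0.20, adjusted p = 2.86e-07 for VWF and 4.20, SE 0.21, adjusted p = 2.01e-08 for LPS) and with LPS alone at 16 h (4.89, SE 0.31, adjusted p = 1.19e-06).

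For each member, the 3 other genes with the smallest root mean square difference of centred log2 CPM over the 28 cultures were listed. For Ccl3 they were Dusp2, Gem and Malt1 (0.57, 0.65 and 0.81), and for Ccl4 they were Ccl3, Dusp2 and Mmp13 (0.84, 0.85 and 1.06), where Dusp2 encodes a MAP kinase phosphatase. For Ccl2 they were Arid5a, Ccnd2 and Csrnp1 (0.59, 0.61 and 0.66), and for Ccl7 they were Ccl2, Edn1 and Gm28347 (0.68, 0.74 and 0.80). The genes nearest to Ccl12 were Gbp7, AA467197 and Slc7a2 (0.90, 0.93 and 0.95), of which Gbp7 encodes an interferon-induced GTPase. Those nearest to Ccl5 were Ifit3b, Slfn1 and Oasl1 (1.48, 1.5 and 1.58), all 3 known as interferon-induced genes, although no gene came as close to Ccl5 as to the other members. Ccl5 also varied most, with an SD of log2 CPM of 4.81 against 0.58 to 3.09 for the other members. These distances are not scaled by that spread. For Ccl22 they were Socs1, Ifih1 and Vcam1 (0.88, 0.93 and 0.96), and for Ccl24 they were Tnfsf8, Rcan1 and Tspan13 (1.26, 1.33 and 1.39). Ccl6 had Mbnl1, Clec7a and Vat1 (0.26, 0.26 and 0.30) and Ccl9 had Klf6, Denr and Birc2 (0.27, 0.29 and 0.29), small distances for genes that varied little.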

How the data were processed

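According to their methods, the authors mapped and quantified the reads with STAR on the mouse build GRCm38, and they deposited raw read counts per gene for the 28 cultures. The strand setting and annotation release were not given in the sources used here. TPM were computed here from the deposited counts and the summed exon length in GENCODE M21 (GRCm38). The 10 genes, the pathway and marker lists and the motifs were chosen with earlier results of these data known. Counts were tested with edgeR 4.0.16 in R 4.3.3 (TMM, robust quasi-likelihood F-test) on genes reaching 10 TPM in at least 1 culture compared, with Benjamini-Hochberg adjustment over all of them. The SE is the log2 fold change over the square root of F. CPM used TMM factors over all cultures, and log2 CPM a prior count of 2. Tests were checked on simulated counts. No pair of cultures of a group agreed within sampling noise (52 pairs). Among comparisons of 2 groups, same-numbered cultures deviated together in every pair for VWF against LPS at 16 h alone (correlations of 0.16 to 0.78, 4 pairs). This was read from the data, not the labels. The summed stromal and endothelial markers, however, were highest in replicate 1 of all 6 groups. At 3.5 h they were lowest in replicate 3 of control, VWF and LPS cultures (55.9, 58.8 and 57.6 CPM). At 16 h replicate 3 was lowest with VWF (61.2 CPM), but not in control or with LPS. Whether equal numbers share a source in the other comparisons was not settled. Named genes were the 10 members, listed pathway genes called against control and the 3 genes of nearest pattern, and Ccr1 was named after its values were seen. DESeq2 1.42.0 and other filters, scalings, fits and left-out cultures were alternatives. Some genes of the receptor and marker lists are counted but not reported by name here.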

Additional observations from a re-analysis of the deposited data

Results flagged for a closer look

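In 2 of 60 sets of a chemokine and a group, 1 culture lay far from the rest; chance gives about 1 in 20. Ccl4 in control cultures at 16 h was at 194 CPM in replicate 5, against 94.8 CPM in the next. Ccl24 in LPS cultures at 16 h was at 2.47 CPM in replicate 3, against 6.3 CPM in the next.

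The effect of VWF against control differed between 16 h and 3.5 h, by the interaction term of edgeR's quasi-likelihood fit, for 8 chemokines. The log2 differences were −2.14 for Ccl2, −2.50 for Ccl7, −5.25 for Ccl3, −6.52 for Ccl4, −2.73 for Ccl22, −7.72 for Ccl24, −1.28 for Ccl6 and −2.13 for Ccl9. The effect of LPS differed for 7, by 3.38 for Ccl12, −1.88 for Ccl3, −2.97 for Ccl4, 1.38 for Ccl5, −1.98 for Ccl22, −2.10 for Ccl24 and −1.16 for Ccl9. The distance from VWF to LPS differed for 7, by −2.43 for Ccl2, −3.18 for Ccl7, −2.42 for Ccl12, −3.36 for Ccl3, −3.54 for Ccl4, −1.07 for Ccl5 and −5.60 for Ccl24. All 3 sets share cultures. The limits given above for the filter on Ccl22 and Ccl24 apply to these values as well.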

How the results depend on the processing

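The count of chemokines called stayed within 1.5 times its value under DESeq2, other filters and scalings, 1 fit of all groups and the replicate block, except for control at 16 h against 3.5 h, where 3 became 5 with no fold limit and 5 without replicate 5 at 16 h (range 2 to 5 with each culture left out). With each culture left out, the other counts ranged from 8 to 8 (VWF against control at 3.5 h), 6 to 6 (at 16 h), 8 to 9 (LPS against control at 3.5 h), 8 to 10 (at 16 h), 6 to 7 (VWF against LPS at 3.5 h), 9 to 9 (at 16 h), 7 to 8 (VWF between times), 4 to 5 (LPS between times), 8 to 9 (VWF effect), 7 to 8 (LPS effect) and 6 to 8 (VWF against LPS difference).

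Calls over all genes, 679 to 2301 by comparison, were over 1.5 times as many in each of the 12 comparisons with no fold limit (2163 to 5392), with edgeR's own filter (1362 to 4116) and with no filter (1378 to 4542).

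The directions that turned belonged to uncalled values. Scaled by library size alone, Ccl6 in VWF against LPS was 0.27 at 3.5 h and 0.073 at 16 h, and Ccl2 in LPS between times was −0.0056. With cultures left out, these ranged from −0.11 to 0.066 for Ccl6 at 3.5 h and from −0.15 to 0.26 for Ccl2, and Ccl5 in control between times ranged from −0.034 to 0.32. The cause was not tested.

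Library size scaling moved the median of all genes to −0.54 and −0.57 for LPS against control at the 2 times, −0.22 for VWF against control at 3.5 h, 0.30 and 0.44 for VWF against LPS, 0.14 for the VWF effect and 0.09 for the VWF against LPS difference, and the share of higher among called genes from 62.4% to 48.8% (VWF against control at 3.5 h), 52.1% to 24.7% and 55.2% to 26% (LPS against control), 41.2% to 68.8% and 43.3% to 71.1% (VWF against LPS), 40.5% to 51.8% (VWF effect) and 42.8% to 56.6% (VWF against LPS difference).

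The replicate block changed no call in VWF against LPS at 16 h. Elsewhere it called Ccl7 in control between times (−1.0) and lost Ccl3 there (−0.99) and Ccl12 in LPS between times (0.96). Of the 5 numbers shared by the control groups, 1 correlated best with its own. Ccl22 and Ccl24 rest on the fewest counts, 0 to 93 in control Ccl22 and 0 to 4 in VWF Ccl24 at 16 h, which limit their precision.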

Other observations

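Of the other CC ligands, those under the 10 TPM filter included Ccl20, a ligand of CCR6, which averaged 0.00704 ± 0.0157 CPM (SD, n = 5) in control, 0.637 ± 0.459 CPM in VWF-treated and 2.94 ± 2.05 CPM (n = 4) in LPS-treated cultures at 3.5 h, and 0.25 ± 0.296 CPM with LPS at 16 h. Ccl25 and Ccl27a, known from thymus and skin, lay between 1.37 and 5 CPM in the mean of every group. Ccl19, Ccl21a and Ccl26 had means of 0 in all groups.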
